A study of Mus musculus with 4 samples.

Results

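The enzymes described here make or move the reducing equivalents NADPH and NADH in muscle: the 5 isocitrate dehydrogenase genes Idh1, Idh2, Idh3a, Idh3b and Idh3g, the nicotinamide nucleotide transhydrogenase gene Nnt, and the 3 malic enzyme genes Me1, Me2 and Me3. These 9 genes were taken by name from the 32868 gene names in the files, and all 9 were among the 10690 genes that passed the filter on low values (at least 0.5 RPKM in at least 2 libraries). RPKM counts the reads of a gene relative to its length in kilobases and to the total reads of the library. Idh2 and Nnt were picked because they were much higher in the Nf1-KO libraries, so their difference is given as a description with no test. The other 7 genes were taken as the remaining members of the same enzyme families.

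The libraries came from the tibialis anterior, a fast hind limb muscle, of C57BL/6 mice at postnatal day 21. The 2 libraries labelled Nf1-KO had the genotype Nf1flox/flox/Myf5+ and the 2 labelled Het had Nf1flox/+/Myf5+, so the controls also carried 1 floxed Nf1 allele and the same Myf5 label. Nf1 encodes neurofibromin, which turns off Ras. Myf5 is a gene of muscle precursor cells, and in crosses of this kind the label stands for a Cre recombinase expressed from it, which leaves Nf1 intact in cells outside that lineage. The labels do not say whether the libraries of a group came from separate animals, so p-values measure the spread between these libraries, which may be technical.

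Isocitrate dehydrogenases turn isocitrate into 2-oxoglutarate. The Idh3 enzyme, built from a catalytic subunit (Idh3a) and regulatory subunits (Idh3b, Idh3g), does so inside the TCA cycle and makes NADH for the respiratory chain. Idh2 in mitochondria and Idh1 in the cytosol and peroxisomes do the same step with NADP and make NADPH, which feeds glutathione and thioredoxin reduction and biosynthesis. Malic enzymes turn malate into pyruvate: Me1 makes NADPH in the cytosol, Me3 makes NADPH in mitochondria, and Me2 works in mitochondria mainly with NAD. Nnt sits in the inner mitochondrial membrane and uses the proton gradient to move a hydride from NADH to NADP.

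Nf1 itself, the check of the labels, was 1.09 and 1.01 RPKM in Het and 0.89 and 0.85 RPKM in Nf1-KO. The groups did not overlap, and the log2 fold change was -0.18 ± 0.057 (± is the standard error of the fit for every fold change, limma adjusted p 0.041), a call that was lost in each fit that left out 1 library, with values as deposited (-0.13, adjusted p 0.094) and with no filter (-0.19, 0.071). For this low gene a pseudocount of 0.1 gave -0.33, and the authors' deposited table gives -0.38 with an adjusted p of 0.0026. The 4 libraries had estimated depths of 36500000 to 58100000 reads. In the authors' deposited table the mean normalized count of the 9 enzyme genes ran from 162 for Me2 to 34618 for Idh3a, so Me2 is the least precisely measured of them. Skeletal muscle markers were abundant in all libraries, with Acta1 at 15930 and 15803 RPKM in Het and 12516 and 12305 RPKM in Nf1-KO. Of the 6 listed, 2 were higher and 4 lower past the threshold (24.9% and 25.4% over all genes tested). Among the markers of other cells, 5 of 5 Schwann cell genes were higher in Nf1-KO past the threshold, 3 of 4 tested fibroblast genes, and both tested macrophage and leukocyte genes (of 6 listed), where 24.9% of all genes tested were higher. Their summed levels were 14.7 to 15.2 against 32.8 to 34.0 RPKM for Schwann cells, 66.5 to 68.9 against 78.9 to 79.0 RPKM for fibroblasts and 1.53 to 1.82 against 3.68 to 4.06 RPKM for macrophages and leukocytes, of which Adgre1 was listed at 0. Of 5 endothelial genes 2 were higher and 1 lower, with sums of 69.7 to 70.0 against 74.8 to 75.7 RPKM. Erythroid genes summed to 1.37 to 1.77 RPKM in all libraries, nearly all of it Alas2, with Hbb-b1 and Hba-a2 listed at 0. Blood content is not judged from these values.

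Of the 7 genes not picked by value, 4 rose (Idh1, Idh3b, Idh3g and Me3) and 3 fell (Me1, Me2 and, only after scaling, Idh3a) in Nf1-KO at a limma adjusted p under 0.05. Over all genes tested the same rule called 50.3%, with 24.9% higher and 25.4% lower, so a call in itself was common here. Their median log2 fold change was 0.27, against 0.00041 over all genes tested. The scaled values of the groups did not overlap in any of the 9 genes, as in 76.3% of all genes tested. The scaling between libraries mattered for the balance of directions over all genes: 49.5% of the called genes were higher with scaled values, and 66.6% with values as deposited. Among the 9 enzyme genes it changed the direction of Idh3a only.

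**Figure D1:**
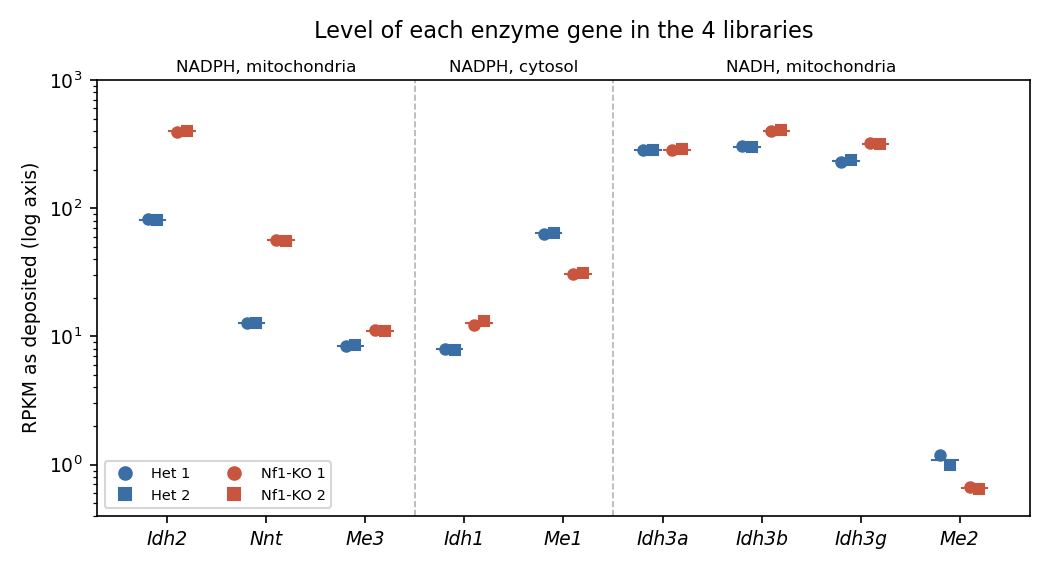
Deposited RPKM (log axis) of the 9 enzyme genes in the Het (blue) and Nf1-KO (red) libraries, with circles for replicate 1, squares for replicate 2 and lines at the group means, grouped by the reduced cofactor and the compartment. Idh2 and Nnt are higher in both Nf1-KO libraries, Me1 and Me2 are lower, and the Idh3a values of the groups lie close together.

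**Figure D2:**
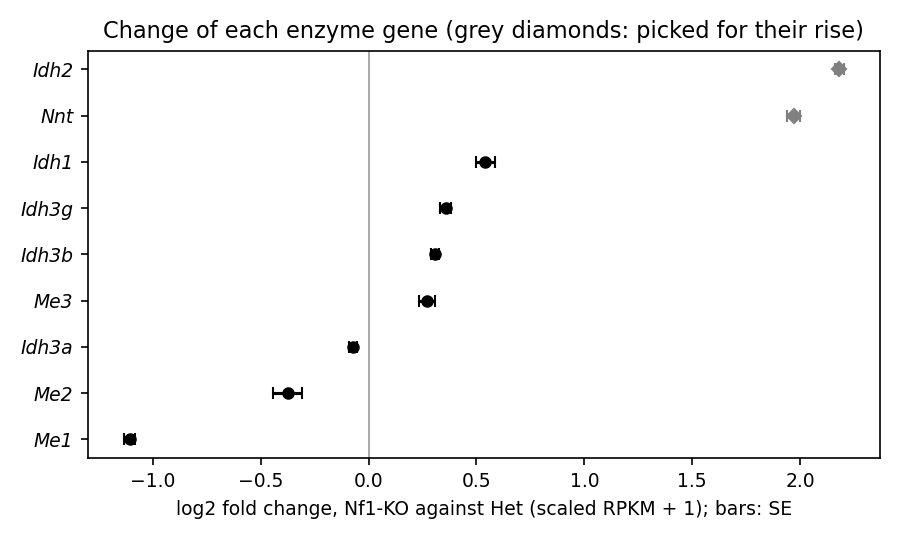
Log2 fold change of Nf1-KO against Het from the limma fit on scaled log2(RPKM + 1), with standard errors as bars, for each enzyme gene. The values run from -1.11 for Me1 to 2.18 for Idh2, and the grey diamonds are the genes picked for their rise.

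Among these genes, the mitochondrial NADPH enzymes are Idh2, Nnt and Me3. Idh2 and Nnt were picked for their rise in Nf1-KO, and Me3 was higher too. Idh2 was 82.6 and 80.4 RPKM in Het and 396 and 401 RPKM in Nf1-KO. The ratio of the scaled means was 4.58, the log2 fold change 2.18 ± 0.021. This was the 6th largest increase among the 4827 tested genes of at least 5 RPKM, and it moved Idh2 from rank 461 to rank 111 by level. The gene lies on chromosome 7 from 80094846 to 80115392 on the minus strand (GRCm38), and the 3 nearest tested genes on each side, looked up after the values of Idh2 were known, had log2 fold changes between -0.17 (Zfp710) and 0.15 (Ngrn).

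Idh2 gained on every other isocitrate dehydrogenase gene. It held 9.12% and 8.86% of the summed RPKM of the 5 genes in the Het libraries and 28.0% and 28.2% in the Nf1-KO libraries. Such shares are formed within a library and do not depend on the scaling between libraries. The Idh3 genes together fell from 90.0% and 90.3% of that sum to 71.1% and 70.9%, although their own summed level was higher, at 815 and 819 RPKM in Het and 1003 and 1006 RPKM in Nf1-KO. Relative to Idh3a, the level of Idh2 was 0.293 and 0.285 in Het against 1.40 and 1.39 in Nf1-KO, which reversed the order of these genes. Relative to citrate synthase (Cs), which makes the citrate from which isocitrate comes, Idh2 was 0.234 and 0.227 in Het and 0.828 and 0.858 in Nf1-KO.

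**Figure D3:**
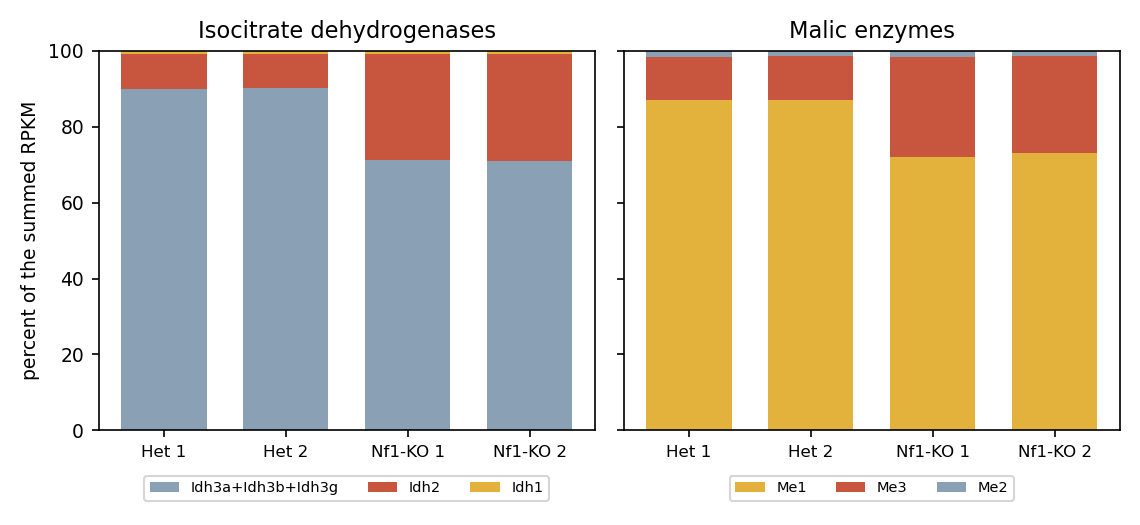
Share of each gene in the summed RPKM of the 5 isocitrate dehydrogenase genes (left) and of the 3 malic enzyme genes (right) in each library, as stacked bars from 0 to 100%. Idh2 takes 8.86% to 9.12% in Het and 28.0% to 28.2% in Nf1-KO, and Me3 takes 11.4% to 11.6% in Het and 25.5% to 26.4% in Nf1-KO.

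Nnt was 12.7 RPKM in each Het library and 56.9 and 55.3 RPKM in Nf1-KO. The ratio of the scaled means was 4.14 and the log2 fold change 1.97 ± 0.029, the 10th largest increase among the 4827 genes. Lowering the pseudocount, the constant added before taking logs, from 1 to 0.1 gave 2.04, and the authors' deposited table gives 2.04 too. Nnt lies near the end of chromosome 13 (119335448 to 119408997, minus strand, GRCm38). Of the 5 tested genes nearest to it, 3 on one side and 2 on the other, the log2 fold changes ran from -0.23 (Parp8) to 0.17 (Mrps30), and its direct tested neighbour Paip1 was 9.61 and 9.24 RPKM in Het and 9.50 and 9.75 RPKM in Nf1-KO. The labels name the strain as C57BL/6 and give no substrain. The substrain C57BL/6J is known to carry a deletion of several exons of Nnt, and a value per gene does not show which exons were read. Which allele the animals carried was not tested.

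Idh2 was 6.52 and 6.33 times the level of Nnt in Het and 6.96 and 7.25 times in Nf1-KO, values that do not overlap. Both genes were picked for a large rise, so this ratio is a description only. Me3, the mitochondrial NADP-dependent malic enzyme, rose from 8.35 and 8.50 RPKM to 11.1 and 10.98 RPKM. Its log2 fold change was 0.27 ± 0.036 (limma adjusted p 0.0013), a smaller change than those of Idh2 and Nnt.

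The cytosolic NADPH enzymes among these genes, Me1 and Idh1, went in opposite directions. Me1 was 63.4 and 63.6 RPKM in Het and 30.4 and 31.4 RPKM in Nf1-KO. The groups did not overlap, and the Het level was 2.19 times the Nf1-KO level by scaled means. The log2 fold change was -1.11 ± 0.026 (limma adjusted p 1.07e-06), the 46th largest fall among the 4827 genes. Me1 lies on chromosome 9 from 86581371 to 86695953 on the minus strand (GRCm38). The 6 tested genes nearest to it, 3 on each side, were looked up after the values of Me1 were known. Of these, Ibtk, Pgm3 and Cyb5r4 were lower past the threshold, as were 25.4% of all genes tested. Their log2 fold changes were -0.52, -0.19 and -0.14 (limma adjusted p 9.92e-05, 0.030 and 0.021). Ube2cbp, Cep162 and Snx14 did not pass. Idh1 was 8.01 and 7.83 RPKM in Het and 12.4 and 13.2 RPKM in Nf1-KO, a log2 fold change of 0.54 ± 0.042 (limma adjusted p 0.000125). Idh1 kept its small share of the isocitrate dehydrogenase RPKM, with 0.884% and 0.864% in Het and 0.876% and 0.929% in Nf1-KO, values that overlap. Because Me1 was the more abundant of these cytosolic genes, their sum was lower in Nf1-KO, at 71.5 and 71.4 RPKM in Het and 42.8 and 44.6 RPKM in Nf1-KO.

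The sum of Idh2, Nnt and Me3 was 104 and 102 RPKM in Het and 464 and 467 RPKM in Nf1-KO. Divided by the sum of Idh1 and Me1, this gave 1.451 and 1.422 in Het and 10.8 and 10.5 in Nf1-KO. The ratio describes RNA levels summed over unlike enzymes, and it rests mainly on Idh2, which was picked for its rise.

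Within the malic enzymes, Me1 and Me3 drew closer. Me1 held 86.9% and 87.0% of the summed RPKM of the 3 genes in Het and 72.0% and 73.0% in Nf1-KO, while Me3 held 11.4% and 11.6% in Het and 26.4% and 25.5% in Nf1-KO. Me2, the mainly NAD-dependent enzyme, was the lowest of the 9 genes, at 1.18 and 0.99 RPKM in Het and 0.67 and 0.64 RPKM in Nf1-KO. Its fall had a log2 fold change of -0.38 ± 0.067 (limma adjusted p 0.0043). For so low a gene the size depends on the pseudocount: with 0.1 it was -0.73, and in the authors' deposited table it was -0.83. Me2 kept a share of 1.62% and 1.36% in Het and 1.59% and 1.49% in Nf1-KO, values that overlap.

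The subunits of the NADH-producing Idh3 enzyme did not change in step. Idh3b was 304 and 300 RPKM in Het and 397 and 404 RPKM in Nf1-KO, a log2 fold change of 0.31 ± 0.018 (limma adjusted p 3.91e-05). Idh3g was 229 and 236 RPKM in Het and 323 and 314 RPKM in Nf1-KO, a log2 fold change of 0.36 ± 0.025 (limma adjusted p 7.60e-05). Both regulatory subunit genes rose, and the ratio of Idh3g to Idh3b overlapped between the groups, with 0.753 and 0.787 in Het and 0.815 and 0.778 in Nf1-KO.

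The catalytic subunit gene Idh3a was 281.6 and 281.8 RPKM in Het and 283.6 and 288.0 RPKM in Nf1-KO. As deposited, both Nf1-KO values were slightly higher, with a log2 fold change of 0.021 (limma adjusted p 0.358). The authors' deposited table gives a log2 fold change of -0.086 ± 0.021 with an adjusted p of 0.000216. After the scaling used here both Nf1-KO values were slightly lower, with a log2 fold change of -0.07 ± 0.018 (limma adjusted p 0.014). That call was lost in the fits without Het replicate 2 (-0.07, adjusted p 0.058), without Nf1-KO replicate 1 (-0.06, 0.120) and without Nf1-KO replicate 2 (-0.07, 0.056), so no direction is claimed for Idh3a. What did not depend on scaling was its level relative to the other subunits. The ratio of Idh3b to Idh3a was 1.08 and 1.07 in Het and 1.40 in both Nf1-KO libraries, and that of Idh3g to Idh3a was 0.814 and 0.839 in Het and 1.14 and 1.09 in Nf1-KO. Idh3a also fell behind citrate synthase, from 0.797 and 0.796 of its level in Het to 0.594 and 0.616 in Nf1-KO.

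By level, the order in Het was Idh3b, Idh3a, Idh3g, Idh2, Me1, Nnt, Me3, Idh1 and Me2. In Nf1-KO it was Idh3b, Idh2, Idh3g, Idh3a, Nnt, Me1, Idh1, Me3 and Me2. Idh3b and Idh2 did not differ beyond their spread in Nf1-KO, where their values of 397 and 404 RPKM and of 396 and 401 RPKM overlap. All other neighbours in either order had values that did not overlap. Nnt and Me1 changed places, as did Idh1 and Me3.

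Comparing levels between genes relies on the gene lengths that the authors used, and for 2 members these appear long. Dividing the mean normalized count of the authors' deposited table by the mean RPKM implies a length of 8213 bases for Nnt and 11137 bases for Me3, against 3464 and 4485 bases for their longest coding transcripts in GENCODE M21. For Idh1, Idh2, Idh3a, Idh3b, Idh3g and Me1 the implied length was 0.933 to 1.10 times the GENCODE length, and for Me2 1.48 times. Levels were recomputed with GENCODE lengths by keeping all counted reads, which assumes that none came from bases outside the GENCODE transcript. This was not tested, and if such reads exist the recomputed Nnt and Me3 levels are too high. With GENCODE lengths, Idh2 was 2.62 to 2.70 times the level of Nnt in Het and 2.88 to 3.003 times in Nf1-KO. Me3 then lay above Idh1 in both groups (recomputed RPKM of 20.7 and 21.1 against 8.38 and 8.20 in Het, and of 27.7 and 27.3 against 12.9 and 13.8 in Nf1-KO). Under that assumption those genes did not change places. Idh2 in Nf1-KO was then 389 and 394, against 370 and 377 for Idh3b, where the deposited values overlapped. That gap comes from implied lengths of 0.982 (Idh2) and 0.933 (Idh3b) times the GENCODE length. The error of these ratios was not estimated, so no order is claimed for Idh2 and Idh3b. Me3 held 22.5% and 22.9% of the malic enzyme level in Het and 44.6% and 43.5% in Nf1-KO. The sum of Idh2, Nnt and Me3 divided by that of Idh1 and Me1 became 1.69 and 1.67 in Het and 11.9 and 11.4 in Nf1-KO. The share of Idh2 among the isocitrate dehydrogenases became 8.95% to 9.22% in Het and 28.3% to 28.5% in Nf1-KO. Changes of a single gene between libraries are not touched by its length. Exons of Idh3b overlap those of Nop56 on the opposite strand, and the kit named in the labels does not mark strand. Nop56 was at most 10.7 RPKM in any library, far under Idh3b. Annotated exons of A330041J22Rik and A230065N10Rik overlap Me1 and Me3 in the same way, and the former was listed at 0 in all libraries.

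The bases before the start sites are shown for Idh2 and Me1, which changed in opposite directions, and for Idh3g, the Idh3 subunit gene with the larger rise. RefSeq promoters were matched for 6 of the 9 genes (GRCm38.p6), and not for Idh3a, Nnt and Me2. Each sequence is the 250 bases before the annotated start, 5′ to 3′ on the strand of the gene. The windows are chr7:80115351-80115600 (minus strand) for Idh2, chr9:86695915-86696164 (minus strand, the outer of 2 starts) for Me1 and chrX:73786898-73787147 (minus strand) for Idh3g. Capitals mark matches, on either strand, to the GC box GGGCGG, to TGACNNNGC (a form of the antioxidant response element), to AAGGTCA (a nuclear receptor half-site of the kind that oestrogen-related receptors bind) and to the E-box CACGTG.
Idh2: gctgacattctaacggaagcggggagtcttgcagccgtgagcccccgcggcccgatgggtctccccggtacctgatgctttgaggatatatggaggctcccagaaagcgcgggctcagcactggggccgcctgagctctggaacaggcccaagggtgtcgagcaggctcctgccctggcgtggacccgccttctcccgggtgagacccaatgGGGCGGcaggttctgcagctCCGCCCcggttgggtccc
Me1: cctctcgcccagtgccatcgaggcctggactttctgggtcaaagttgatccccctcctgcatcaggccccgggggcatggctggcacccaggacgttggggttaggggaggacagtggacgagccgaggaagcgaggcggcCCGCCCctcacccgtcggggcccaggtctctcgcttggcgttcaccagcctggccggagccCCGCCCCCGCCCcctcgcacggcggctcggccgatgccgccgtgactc
Idh3g: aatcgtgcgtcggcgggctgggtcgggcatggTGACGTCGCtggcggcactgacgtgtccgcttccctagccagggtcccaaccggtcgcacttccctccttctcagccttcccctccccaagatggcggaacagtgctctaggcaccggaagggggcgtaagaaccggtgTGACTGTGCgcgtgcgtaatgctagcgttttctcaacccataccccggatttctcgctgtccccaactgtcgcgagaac
The Idh2 window held 2 GC boxes and the Me1 window 3, with adjoining matches in the latter, and 32.7% of 32851 promoter windows of the same length held at least 1. The Idh3g window held 2 matches to TGACNNNGC, a motif found in 10.2% of windows. AAGGTCA and CACGTG were found in none of the matched windows of the 6 genes, against 4.08% and 6.02% of all windows. A match is a run of letters and not a binding site, and any part of these motifs in the changes was not tested.

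The genes around these enzymes were taken from lists of pathway members. In the list of citrate and 2-oxoglutarate neighbours, which holds TCA enzymes, transaminases and carriers, 10 of 14 genes were higher past the threshold and none was lower (background 24.9% higher and 25.4% lower). The median log2 fold change of the list was 0.34, against 0.00041 over all genes tested. Got1, the cytosolic aspartate transaminase, rose from 213 and 213 RPKM to 400 and 399 RPKM (log2 fold change 0.81, limma adjusted p 7.33e-07). Mdh1 and Got2 of the malate-aspartate shuttle had log2 fold changes of 0.58 and 0.55, and Slc25a11, the mitochondrial carrier that exchanges malate for 2-oxoglutarate, 0.41. Citrate synthase rose from 353 and 354 RPKM to 478 and 467 RPKM (log2 fold change 0.32, limma adjusted p 3.93e-05). The genes of the list that did not pass were Aco1, Acly, Slc25a1 and Slc25a10, with log2 fold changes of 0.13, -0.11, -0.03 and -0.0048; they are named after their values were seen.

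In the list of pentose phosphate and folate enzymes, which are other sources of NADPH, 4 of 9 tested genes were higher and 2 lower past the threshold. Over all genes tested 24.9% were higher and 25.4% lower. The median of the log2 fold changes was 0.17. With values as deposited 6 were higher and 2 lower. Pgls, the lactonase of the pentose phosphate pathway, rose from 5.48 and 5.47 RPKM to 8.07 and 7.92 RPKM (log2 fold change 0.39), and Mthfd1, the cytosolic folate enzyme, by 0.17 on the log2 scale. H6pd did not pass (0.08, limma adjusted p 0.134). The mitochondrial folate enzymes Mthfd2 and Aldh1l2, named after their values were seen, fell by 0.27 and 0.31 on the log2 scale, both from levels of about 1 RPKM or less. Of the other mitochondrial folate genes of the list, Mthfd2l did not pass (0.09) and Mthfd1l was too low to test, at 0.13 and 0.10 RPKM in Het and 0.21 and 0.19 RPKM in Nf1-KO. G6pdx, the entry enzyme of the pentose phosphate pathway, was 0.56 and 0.77 RPKM in Het and 0.96 and 0.99 RPKM in Nf1-KO, and did not pass (limma adjusted p 0.063).

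Of the NAD kinases and the mitochondrial users of NADPH, 5 of 9 tested genes were higher and 1 was lower (24.9% and 25.4% over all genes tested), and the median of the log2 fold changes was 0.14. Txn2 and Prdx3, which carry electrons from NADPH to peroxides in mitochondria, had log2 fold changes of 0.33 and 0.22 (limma adjusted p 8.42e-05 and 0.000339). Prdx5 had 0.15. Sirt3, the mitochondrial deacetylase known to act on Idh2, had 0.14 (limma adjusted p 0.045). Glutathione reductase Gsr was 8.80 and 8.64 RPKM in Het and 9.03 and 9.12 RPKM in Nf1-KO and did not pass. Aldh18a1, an NADPH user of proline synthesis named after its values were seen, fell by 0.38 on the log2 scale. Nadk2, the mitochondrial NAD kinase, was listed at 0 in all libraries, and Txnrd2 at 0.03 RPKM or less.

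Some listed enzymes handle 2-hydroxyglutarate, a side product of 2-oxoglutarate metabolism. Of these, 1 of 2 tested genes was higher and none was lower (24.9% and 25.4% over all genes tested). Adhfe1, a transhydrogenase that couples 2-oxoglutarate to hydroxyacids, rose from 8.24 and 8.37 RPKM to 13.1 and 13.2 RPKM (log2 fold change 0.52, limma adjusted p 6.25e-05). The D-2-hydroxyglutarate dehydrogenase gene D2hgdh had a log2 fold change of 0.08 and did not pass (limma adjusted p 0.309). Exons of Pgls, Mthfd1, Aldh1l2, Prdx5, Sirt3, Slc25a10, Slc25a11, Mdh1, Got2, Adhfe1 and G6pdx overlap those of other annotated genes, so their values may include reads of these.

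**Figure D4:**
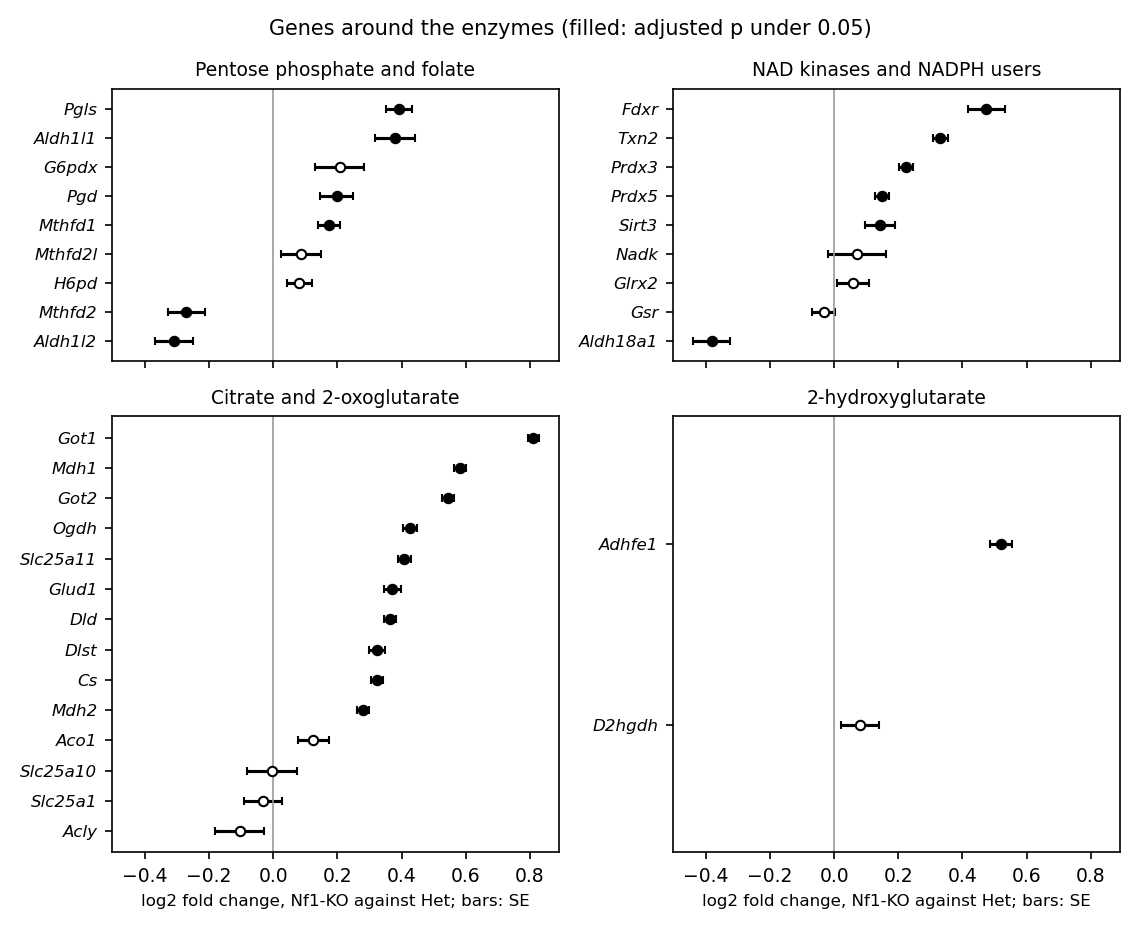
Log2 fold change of Nf1-KO against Het, with standard errors as bars, for the tested genes of the 4 lists around the enzymes. Filled points passed a limma adjusted p of 0.05: 10 of 14 in the citrate and 2-oxoglutarate list, all to the right of 0, and 6 of 9, 6 of 9 and 1 of 2 in the others. The same threshold was passed by 50.3% of all genes tested.

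Of 6 genes of slow and oxidative fibres, 5 were higher past the threshold, where 24.9% of all genes tested were. Their summed level was 481 and 505 RPKM in Het and 932 and 908 RPKM in Nf1-KO, most of it Myh2. Myh7, the defining slow myosin, was 1.53 and 1.66 RPKM in Het and 1.47 and 1.36 RPKM in Nf1-KO, and did not pass (log2 fold change -0.16, limma adjusted p 0.066). Of the adipocyte genes 3 of 4 tested were higher, against the same 24.9%, with a summed level of 179 and 186 RPKM in Het and 269 and 267 RPKM in Nf1-KO that was mostly Fabp4, a gene that endothelial cells also express. The defining adipocyte gene Adipoq was 1.11 and 1.31 RPKM in Het and 0.95 and 1.05 RPKM in Nf1-KO, and Plin1 was under 0.5 RPKM in all libraries. Of the brown adipocyte genes, Ucp1 was listed at 0 and Cidea was 0.75 and 1.02 RPKM in Het and 2.01 and 2.52 RPKM in Nf1-KO, the only one of the 3 that was tested. The part of fibre type and of other cells in the values of the enzyme genes was not tested. In bulk tissue, a change in the number of cells of a type and a change in RNA per cell cannot be told apart.

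Among 4826 other genes of at least 5 RPKM, the profiles over the 4 libraries nearest to that of Idh2, by the root mean square difference of centred log2 values, were those of Tbc1d4 (0.029), Postn (0.050) and Ldhb (0.077). Tbc1d4 was 3.4 and 3.45 RPKM in Het and 19.6 and 19.7 RPKM in Nf1-KO. The nearest to Nnt were Fkbp5 (0.033), Ldhb (0.035) and Casq2 (0.054). Ldhb, the heart-type lactate dehydrogenase subunit, was 86.6 and 84.5 RPKM in Het and 375 and 376 RPKM in Nf1-KO, close to Idh2 in level as well as in change. The nearest to Me1 were Scd2 (0.015), Relt (0.018) and Hipk2 (0.021). Scd2, a fatty acid desaturase, was 7.49 and 7.64 RPKM in Het and 3.08 and 3.32 RPKM in Nf1-KO. Postn was 1.32 and 1.07 RPKM in Het and 9.33 and 9.82 RPKM in Nf1-KO, a ratio of scaled means of 7.50 against 4.58 for Idh2. The distance is taken on log2(RPKM + 1), which compresses the changes of low genes.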

How the data were processed

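Total RNA of 4 libraries was sequenced by the submitters, and the submitters' processing notes name STAR 2.4.2a, DESeq2 and the build mm9. The counting program and annotation are not given in the sources used here. The authors deposited 1 RPKM value per gene and library (34682 rows, unit read from the values) and a comparison table. Per the file headers, that table has the DESeq2 layout: a deposited mean normalized signal, log2 fold change with standard error, test score, p-value and adjusted p-value. Rows without a gene name were left out, and of repeated names the copy with the highest mean was kept (no enzyme gene described here had copies). limma 3.58.1 (R 4.3.3) was fitted to log2(RPKM + 1) over all 10690 tested genes, with a variance trend, after scaling by a trimmed mean of log ratios (factors 0.967 to 1.03). Two-sided p-values were Benjamini-Hochberg adjusted with a threshold of 0.05. Means and levels are RPKM as deposited. Fold changes on this scale understate low genes. With 2 against 2 libraries an exact permutation test cannot go below 0.333. Replicate variance exceeded sampling noise (median ratio 2.13 in Het and 1.95 in Nf1-KO over 4075 genes), so no pair was taken for a repeat deposit of 1 library. This does not show that the libraries came from separate animals. Depth was estimated from the steps of low values in genes under 400 bases and is approximate. The fitting code was tested on simulated data. Positions are from GENCODE M21 and RefSeq (GRCm38), not the authors' build. The genes and lists were chosen with earlier results of these data known. Beside the 9 enzyme genes, up to 4 genes of at least 5 RPKM with the smallest adjusted p were named per list, with the 3 nearest profiles to Idh2, Nnt and Me1. Some genes of the lists are not reported here.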

Additional observations from a re-analysis of the deposited data

How the results depend on the processing

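Under 12 alternatives (11 for Me2, which the filter of 1 RPKM in every library removes), 99 of 107 values of the 9 enzyme genes stayed on the same side of 0 and of the threshold or, for Idh2 and Nnt, within 1 SD of the replicates. The exceptions were Idh3a, Idh2 and Nnt. Idh3a turned from -0.07 to 0.021 with values as deposited, by construction of the scaling. It lost its call without a variance trend (adjusted p 0.146) and in 3 of the 4 fits that left out a library, where the cause was not tested. Its adjusted p ran from 0.014 to 0.358 over all alternatives. Idh2 ran from 2.16 to 2.27 and Nnt from 1.95 to 2.06. Me1 ran from -1.13 to -1.02, Idh1 from 0.51 to 0.63, Idh3b from 0.29 to 0.40, Idh3g from 0.33 to 0.45, Me3 from 0.25 to 0.36 and Me2 from -0.73 to -0.31. The count of called genes was 5381 and ran from 4050 to 5643, with 4050 to 4177 when a library was left out, where the lone library of a group is assumed to vary like the other group. The gain of Idh2 in its share of the isocitrate dehydrogenase RPKM, 19.1 percentage points, ran from 19.0 to 19.3. The scaling by the median log ratio and the GENCODE lengths were added after seeing the data. Libraries of the same replicate number did not deviate together (correlation of deviations 0.046 over 4827 genes). In the fit with a replicate block, the count of calls was 5343 and the call of each of the 7 enzyme genes was kept, while Nf1 was not called (-0.18, adjusted p 0.054). Depth limits Me2 most.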
